A study of Drosophila melanogaster with 9 samples.

Results

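The genes edin, IBIN, CG45045 and CG42807 were followed in RNA of dissected *Drosophila melanogaster* brains. They are 4 of the 17562 gene IDs measured. They were taken by name and chosen by their higher normalized counts in the exposed groups of these same libraries. Their levels and changes are therefore given as a description, with no test. The genes share the working name of infection-induced small peptides. In the annotation edin encodes 115 amino acid residues, IBIN 41 and CG45045 42, whereas CG42807 encodes 278, so the word small does not hold for CG42807.

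Flies sense peptidoglycan, a polymer of the bacterial cell wall, through the Imd pathway, in which receptors of the PGRP family signal to the NF-kappaB factor Relish. Relish switches on genes for antimicrobial peptides, mostly in the fat body, the insect counterpart of the liver, and amidases such as PGRP-LB cut peptidoglycan and so restrain the response. The gene edin (elevated during infection) encodes a short secreted peptide of the immune response, which in larvae takes part in the haemocyte response to parasitoid wasps. IBIN (Induced by Infection) was first catalogued as a noncoding RNA, is switched on through both Toll and Imd signalling, and has been linked to sugar metabolism during infection. CG45045 was likewise first catalogued as a noncoding RNA. No role is stated here for CG45045 or CG42807.

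The labels give 3 groups of 3 libraries. The first group was unexposed wild type, called the control. The second was wild type that had taken up by mouth the Gram-negative bacterium Ecc15, a strain of *Erwinia carotovora carotovora*, and the third was the PGRP-LB mutant given Ecc15 in the same way. Every library was made from poly(A) RNA of 20 pooled brains of adult females aged 4 to 6 days. The labels' protocols state 16 h of exposure, while the design text of the series speaks of a 24-hour diet of bacteria or of sucrose in both genotypes. No unexposed mutant library was analysed here, so the mutation and the mutant's response to Ecc15 cannot be told apart. The wild-type strain and the mutant allele are not given in the labels. The libraries are called S1 to S3 within a group, as the deposited columns mark them.

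Values are read counts normalized by the authors in 2 separate deposited tables, one for exposed wild type and one for the exposed mutant, each with the same 3 control libraries. A library summed to between 25.3 and 27.8 M normalized counts (M, mega), and the reads behind them were estimated at 19.4 to 30.7 M. As a check of the labels, PGRP-LB itself stood at 164, 120 and 151 in the controls and at 687, 1359 and 721 in the mutant libraries. Its transcript is thus present in the mutant, and without the allele this checks nothing. The eye pigment gene w (*white*) stood at 5, 6 and 13 in the controls and at 4, 5 and 7 in exposed wild type. In the mutant it stood at 11962, 18926 and 11128, so the strains also differ in the counts of a gene other than PGRP-LB. The source of these w reads was not tested. Neuron markers summed to 322992 to 380431 over all 9 libraries. Glial markers summed to 168515 to 187158 in the controls, 163942 to 170005 in exposed wild type and 139192 to 151832 in the mutant. Every mutant library thus lay under every wild-type library in the glial sum.

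The 4 genes lie far apart in the genome. Coordinates are those of the BDGP6 assembly with the Ensembl annotation, matched by symbol, since the deposited tables give no positions. The gene edin (FBgn0052185) is a single exon of 421 bases on the plus strand of chromosome arm 3L, from 17494880 to 17495300, within an intron of Oatp74D. IBIN (FBgn0265577) is a single exon of 228 bases on the plus strand of 2R, from 17671068 to 17671295. CG45045 (FBgn0266405) is a single exon of 254 bases on the plus strand of 3R, from 17667572 to 17667825, within an intron of CG14322. CG42807 (FBgn0261989) spans 2165 bases on the minus strand of 2R, from 13570595 to 13572759, and has 2 annotated transcripts.

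The transcript of edin went from nearly undetected to one of the most abundant per length. In the control libraries S1 to S3 it stood at 5, 6 and 4 normalized counts. In exposed wild type it stood at 31, 20 and 7, and in the exposed mutant at 22579, 39169 and 18065. Exposed wild type lay above the controls in every library, by a single count at the closest. That library, S3, had a 95% Poisson interval of 3.13 to 14.3 around its value of 7, against 2.10 to 12.4 around the 6 of the highest control, and these overlap. The intervals cover counting error only. The means were 5.0 ± 1.0 in the controls, 19.3 ± 12.01 in exposed wild type and 26604 ± 11113 in the mutant (SD, n = 3 each). The ratio to the control mean was 3.87 in exposed wild type and 5321 in the mutant, where edin ranked first of 13384 genes by log2 change.

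IBIN showed the same order of groups at higher starting values. The controls held 6, 18 and 16 normalized counts. Exposed wild type held 95, 31 and 19, and the mutant 3950, 13606 and 6284. In exposed wild type S1 alone stood well apart, and S3, with an interval of 11.8 to 29.1, met that of the highest control, 10.9 to 28.3. The mean was 13.3 ± 6.43 in the controls and 48.3 ± 40.9 in exposed wild type, 3.63 times as high. The mutant mean was 7947 ± 5038, which was 611 times the control mean of its own table.

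CG45045 was higher in every exposed library than in any control. It stood at 7, 10 and 17 in the controls, at 353, 367 and 149 in exposed wild type, and at 7120, 24384 and 9668 in the mutant. None of the 3 groups overlapped. The ratio to the control mean was 25.6 in exposed wild type and 1287 in the mutant.

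CG42807 had the highest control level of the 4 and the smallest step between the strains. Its controls stood at 137, 158 and 264, exposed wild type at 2387, 2942 and 1223, and the mutant at 2915, 6878 and 4000. Exposed wild type was 11.7 times and the mutant 25.1 times the control mean. As deposited, the lowest mutant library lay just under the highest exposed wild-type library. On a common scale set by the shared controls it lay 1.01 times above it.

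**Figure D1:**
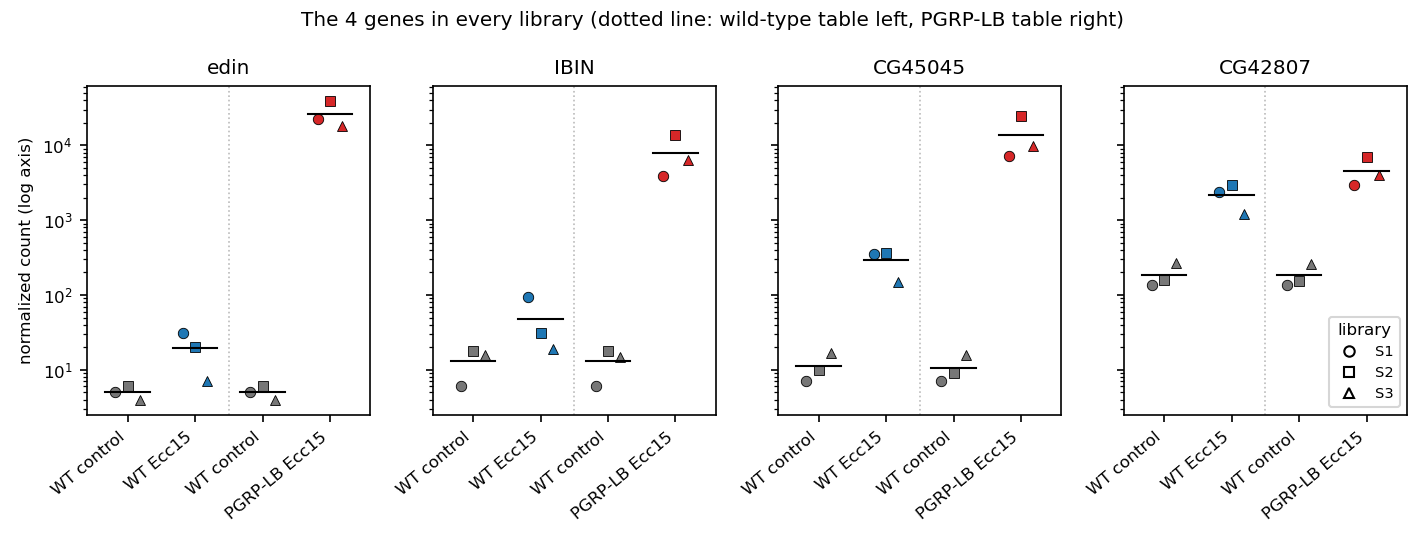
Normalized count (log axis) of each gene in every library, with the wild-type table left and the PGRP-LB table right of the dotted line; horizontal lines are group means and symbols mark libraries S1 to S3. The mutant libraries of edin, from 18065 to 39169, stand far above exposed wild type, from 7 to 31, whereas those of CG42807, from 2915 to 6878, adjoin it.

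Set side by side, the genes fell into different patterns over the comparisons, which share the control libraries. On the scale log2(normalized count + 1), exposed wild type differed from control by 1.56 (SE 0.57) for edin, 1.59 (SE 0.66) for IBIN, 4.53 (SE 0.45) for CG45045 and 3.51 (SE 0.36) for CG42807. The mutant differed from control by 12.05 (SE 0.28), 9.08 (SE 0.52), 10.07 (SE 0.48) and 4.61 (SE 0.35) in the same order. IBIN and edin thus had the smaller changes in wild type, and CG42807 the smallest in the mutant. The mutant exceeded exposed wild type by 10.51 (SE 0.47) for edin, 7.49 (SE 0.64) for IBIN, 5.49 (SE 0.51) for CG45045 and 1.10 (SE 0.40) for CG42807. As ratios of means these were 1399, 167, 48.2 and 2.14.

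In each comparison the 4 genes were higher without overlap between groups on the common scale. The share of all genes that were so was 6.93% in exposed wild type, 18.8% in the mutant against control and 20.8% in the mutant against exposed wild type. Since the genes were picked for these changes, nothing is read from the count. The median log2 change of the 4 was 2.55, 9.57 and 6.49 in these comparisons, beside 0.00, 0.01 and 0.00 over all genes tested. In the authors' deposited table the fold in exposed wild type was 4.03 for edin, 3.66 for IBIN, 26.1 for CG45045 and 11.7 for CG42807. In the authors' deposited table for the mutant it was 5597, 606, 1257 and 25.1.

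The antimicrobial peptide genes place these steps in context. Of 15 such genes listed, 14 were tested and 7 of them rose in exposed wild type and all 14 in the mutant against control and against exposed wild type (limma across all genes, Benjamini-Hochberg adjusted p under 0.05). Of all genes tested, 0.122% rose in exposed wild type, 9.65% in the mutant against control and 9.62% in the mutant against exposed wild type. Their median log2 changes were 5.13, 9.84 and 5.06. DptA, which encodes a diptericin active against Gram-negative bacteria, rose by 5.91 in exposed wild type (limma adjusted p = 0.00795) and by 11.43 in the mutant (limma adjusted p = 6.27e-06). The wild-type calls of all 7 were lost without exposed library S1 or S2 or control S1, and 4 genes were called without control S2. The ratio of mutant to exposed wild-type means ran over the 14 genes from 5.28 for Mtk to 182 for CecA2. The ratio of edin, 1399, lay above this range and that of CG42807, 2.14, under it, with IBIN and CG45045 inside. In wild type the log2 changes of edin and IBIN were smaller than those of all 14, the smallest of which was 2.57 for AttA.

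**Figure D2:**
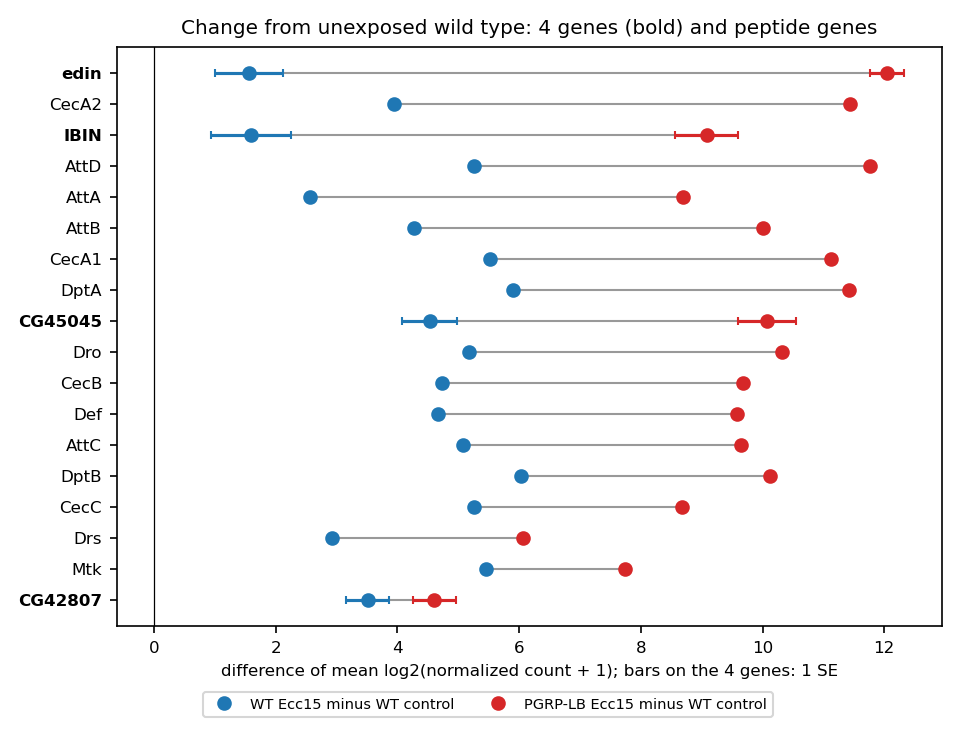
Difference of mean log2(normalized count + 1) from control for the 4 genes (bold, with bars of 1 SE) and 14 antimicrobial peptide genes, in exposed wild type (blue) and the exposed mutant (red), ordered by the gap between the strains. The gap is widest for edin, from 1.56 to 12.05, and narrowest for CG42807, from 3.51 to 4.61.

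Per kilobase of exon, the order of the 4 genes changed from group to group. In the controls the mean level per kilobase was 88.7 for CG42807, 58.5 for IBIN, 44.6 for CG45045 and 11.9 for edin. In exposed wild type it was 1140 for CG45045 and 1039.5 for CG42807, neighbours within their spread, then 212 for IBIN and 45.9 for edin. In the mutant edin came first at 64267, followed by CG45045 at 54950, IBIN at 35446 and CG42807 at 2226. Among 16838 genes with an annotated length, edin moved from rank 9451 in the controls to rank 8 in the mutant, CG45045 from 7973 to 13 and IBIN from 7707 to 25. CG42807 reached rank 801. Fragments as short as 3 of these transcripts can be lost in library preparation, and the level per kilobase takes no account of it. Together the 4 genes took 0.000605% to 0.00115% of the normalized total in the controls, 0.00525% to 0.0127% in exposed wild type and 0.137% to 0.302% in the mutant.

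Ratios within a library do not depend on its scaling. The ratio of edin to CG45045 per kilobase was 0.431, 0.362 and 0.142 in control libraries S1 to S3. It was 0.0530, 0.0329 and 0.0283 in exposed wild type and 1.91, 0.969 and 1.13 in the mutant. The control values rest on few reads of both genes. For IBIN to CG45045 the ratio was 0.955, 2.01 and 1.05 in the controls, 0.300, 0.0941 and 0.142 in exposed wild type and 0.618, 0.622 and 0.724 in the mutant. The mutant ratios of IBIN to CG45045 lay close together, although the level of IBIN itself differed 3.44-fold between the same libraries. CG42807 to CG45045 gave 2.37, 1.91 and 1.88 in the controls, 0.817, 0.969 and 0.992 in exposed wild type and 0.0495, 0.0341 and 0.05002 in the mutant. The ratio of CG42807 to CG45045 thus stepped down from group to group without overlap, while those of edin and IBIN were lowest in exposed wild type. The ratio of edin to IBIN was 0.451, 0.181 and 0.135 in the controls, 0.177, 0.349 and 0.200 in exposed wild type and 3.10, 1.56 and 1.56 in the mutant, so control and exposed wild type overlapped in it.

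**Figure D3:**
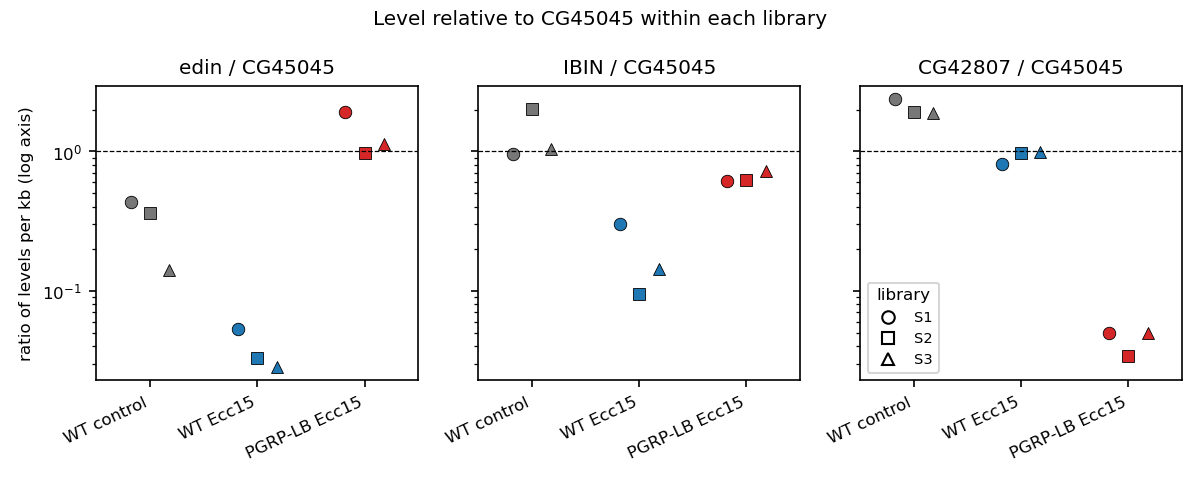
Ratio of the level per kilobase of edin, IBIN and CG42807 to that of CG45045 in each library (log axis, dashed line at equality). In the mutant edin lies at 0.969 to 1.91 and CG42807 at 0.0341 to 0.05002, and in exposed wild type edin lies at 0.0283 to 0.0530 and CG42807 at 0.817 to 0.992.

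The order of the libraries within a group was shared in part by these genes. Mutant S2 was highest for 4 of 4 and for 13 of 14 antimicrobial peptide genes, whereas 34.1% of all genes had their highest mutant value there. Mutant S1 was lowest for IBIN, CG45045 and CG42807, and S3 for edin, whereas 12 of 14 peptide genes were lowest in S3. Exposed wild-type S3 was lowest for 4 of 4 and for 13 of 14 peptide genes, against 30.4% of all genes, while the highest was S1 for 2 of the 4 and S2 for the other 2. In the controls S2 was highest for 2 of the 4 and S3 for 2, and S1 lowest for 3. Without exposed wild-type S1 the log2 change of IBIN in wild type was 0.95 in place of 1.59, and its step from exposed wild type to mutant 8.13 in place of 7.49. For the other genes, leaving out any 1 library moved the fold change by a factor of less than 1.5. The log2 difference of CG42807 between mutant and exposed wild type then ranged from 0.73 (without exposed wild-type S3) to 1.38, around 1.10. With 1 library left out, the log2 change in wild type ranged from 1.12 to 2.12 for edin, 4.26 to 4.95 for CG45045 and 3.25 to 3.88 for CG42807.

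Brain dissections can carry adhering tissue, so markers of other tissues are given beside these levels. In bulk RNA, fewer cells of a type and less RNA per cell cannot be told apart. Sums of 13 fat body markers were 263334, 230943 and 108758 in the controls, 298168, 414299 and 386996 in exposed wild type and 98433, 556742 and 215121 in the mutant. Mutant S2, the library highest for the 4 genes, was thus also highest for fat body markers. In the mutant Yp1, Yp2, Yp3, apolpp and FASN1 averaged 61149, 93700, 73053, 40317.5 and 18834 on the common scale. The next highest fat body marker, CG10621, averaged 1229, so these sums are mostly those of the first-named genes. Mutant S1 had the lowest fat body sum of all 9 libraries and was the lowest mutant library for IBIN, CG45045 and CG42807, at 3950, 7120 and 2915, but not for edin, at 22579. The fat body marker Fbp2 was at 0 in all controls and averaged 1.67 in exposed wild type and 7.46 in the mutant. Its log2 change therefore depends on the 1 added to each value. Of the fat body markers, 0 of 12 tested passed in exposed wild type, although 6 were higher at an unadjusted p under 0.05 (limma). In the mutant against control 3 of 13 rose, namely Fbp2, Lip4 and Lsp1beta, where 9.65% of all genes rose. The call of Lip4 was lost without any 1 mutant library. Against exposed wild type 1 of 13 rose, where 9.62% of all genes did, and this count ran from 0 to 3 over 16 alternatives. In that contrast 4 of 13 had a log2 change above 0, at a median of -0.48. Lsp1beta averaged 190 in exposed wild type and 193 in the mutant.

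Haemocyte markers, 15 genes of which NimC3 was at 0 in all libraries, summed to 45928 to 60582 in the controls, 62470 to 79624 in exposed wild type and 29921 to 60464 in the mutant. Of 14 tested, none passed in exposed wild type. All 14 had a log2 change above 0, at a median of 0.59, and 6 were higher at an unadjusted p under 0.05 (limma). In the mutant against control 4 fell, where 6.26% of all genes fell. Against exposed wild type 7 fell, where 7.03% did. PPO1, a prophenoloxidase of crystal cells, fell by 2.53 on the log2 scale against control (limma adjusted p = 0.0102), a call lost without mutant S3. PPO2, the other prophenoloxidase of crystal cells, fell by 1.79 (limma adjusted p = 0.000137) and held in all 12 alternatives. Muscle markers summed to 3937 to 16861, 4628 to 10662 and 22907 to 40879 in controls, exposed wild type and mutant. Of 12 muscle markers 2 rose in the mutant against control, where 9.65% of all genes rose. Against exposed wild type 8 rose, where 9.62% did. With 1 library left out these counts ran from 0 to 3 and from 3 to 10. Both calls against control, of sls and Act79B, were lost without any 1 mutant library, and that of sls also without control S1. Gut markers summed to at most 298 in any library, and of 10 there were 5, 3 and 1 at 0 throughout the controls, exposed wild type and mutant. Of 10 glial markers 5 fell in the mutant against control, and 3 without mutant S1, mutant S2 or control S2. Against exposed wild type 4 glial markers fell, a count that held in all 16 alternatives. Of 14 neuron markers 1 rose and 1 fell in the mutant against control, and only 1 was called with most single libraries left out. The part of adhering tissue in the levels of the 4 genes was not tested.

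**Figure D4:**
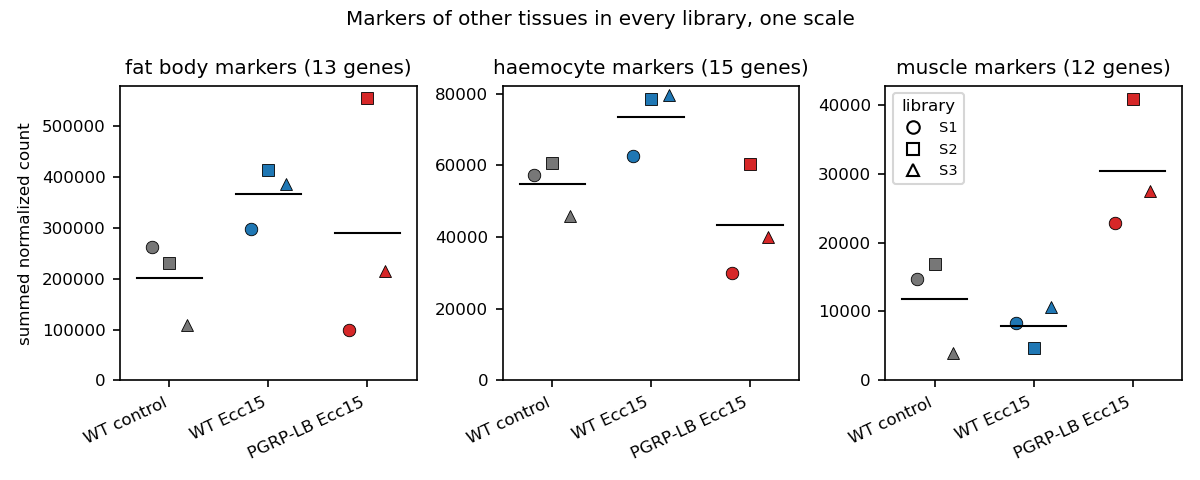
Summed normalized counts (one common scale) of fat body, haemocyte and muscle markers in every library, with group means as lines. Mutant S2 has the highest fat body and muscle sums, 556742 and 40879, and mutant S1 the lowest fat body and haemocyte sums, 98433 and 29921. The fat body sums come mostly from Yp1, Yp2, Yp3, apolpp and FASN1.

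The genes around each locus are given first for the mutant against control. Oatp74D, an organic anion transporter gene whose intron holds edin, stood at 719, 808 and 965 in the controls and at 833, 1196 and 1032 in the mutant, a difference of 0.29 on the log2 scale (limma adjusted p = 0.259). CG14322, around CG45045, differed by 0.22 (limma adjusted p = 0.106). Both host genes lie on the strand of the gene they hold and share no exon with it. CG30109, which ends 319 bases before IBIN on the same strand, rose by 0.89 (SE 0.22) in the mutant against control (limma adjusted p = 0.0351), a call lost without mutant S2 or S3 or any 1 control. Against exposed wild type it rose by 0.99 (limma adjusted p = 0.00814). P32, which lies 13 bases beyond IBIN on the opposite strand, its 3′ end towards IBIN, differed by 0.28 against control (limma adjusted p = 0.0748) and rose by 0.45 against exposed wild type (limma adjusted p = 0.00364). The calls of both genes against exposed wild type held in all 16 alternatives. The strand setting of the authors' counting is not given, so reads running from IBIN into P32 cannot be told apart from reads of P32.

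CG42808 lies 858 bases upstream of CG42807 on the same strand. It stood at 123, 269 and 98 in the controls and at 777, 793 and 549 in the mutant, a rise of 2.23 (SE 0.37, limma adjusted p = 0.00838). In exposed wild type it stood at 137, 68 and 140, a difference of -0.46 (limma adjusted p = 0.835), where CG42807 stood at 11.7 times control. Between the mutant and exposed wild type CG42808 rose by 2.69 (SE 0.39, limma adjusted p = 0.00162), a larger log2 difference than the 1.10 of CG42807; the gap between these was not tested. The tRNA gene tRNA:Ala-AGC-2-10, 361 bases downstream of CG45045 on the same strand, stood at 2, 0 and 8 in the controls and at 18, 66 and 33 in the mutant. Its rise of 3.55 (SE 0.86, limma adjusted p = 0.0338) was lost in 5 of 12 alternative settings, and tRNAs carry no poly(A) tail of the kind selected here. The more distant neighbours were CG6333, CG13334 and U4-U6-60K, with differences of 0.51, 0.24 and -0.44, and none passed in the mutant against control. Against exposed wild type U4-U6-60K fell by 0.42 (limma adjusted p = 0.0481), a call lost in 8 of 16 alternative settings.

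**Figure D5:**
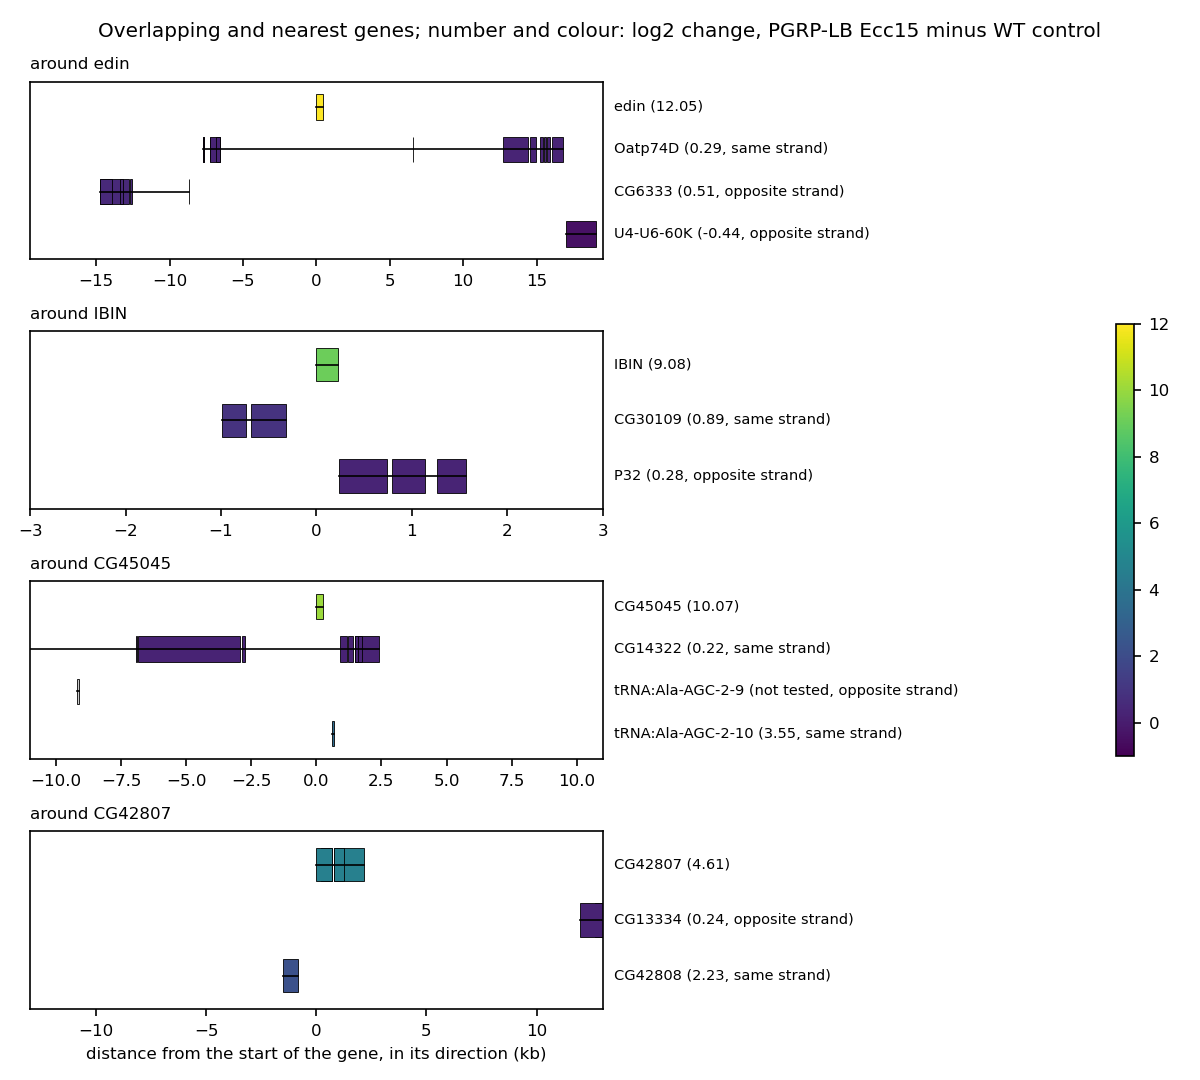
Overlapping and nearest genes of each locus, drawn by exons against distance (kb) from the start of the named gene in its own direction; colour and number give the log2 difference of the mutant from control. The 4 genes reach 4.61 to 12.05, the largest neighbour is tRNA:Ala-AGC-2-10 at 3.55 and CG42808 reaches 2.23.

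Among 12822 genes, those whose log2 values, taken relative to the control mean, lay nearest to each of the 4 over the 9 libraries were named by root mean square difference. Nearest to edin were CecA2, a cecropin gene, at 1.44, w at 1.59 and CG43920 at 1.91. The gene w differed from control by -0.43 in exposed wild type, and its distance from edin is smaller than that of IBIN, 1.81. Nearest to IBIN were AttA, an attacin gene, at 0.85, CG43920 at 1.01 and CG42825 at 1.14. CG45045 had the closest companions, the antimicrobial peptide genes Dro and Def at 0.52 and 0.59 and the amidase gene PGRP-SC2 at 0.63. Nearest to CG42807 were Sr-CIV at 0.81, PGRP-LF, which encodes a receptor that dampens Imd signalling, at 0.84, and upd3, a cytokine of the JAK-STAT pathway, at 0.87. Sr-CIV and upd3 had control means of 0.667 and 0.333 and exposed wild-type means of 7.0 and 5.33 normalized counts, and CecA2 and CG42825 control means of 1.33 and 1.67. The log2 changes of these 4 genes therefore depend on the added pseudocount. Those of CG43920 and PGRP-SC2, with control means of 4.0 and 4.67, and of edin, at 5.0, also depend on it. CG42807 lay 2.86 to 4.48 from the other members, farther than any of the nearest genes named above lay from its member. CecA2 and CecA1, and AttA and AttB, are near-identical copies, so their counts are uncertain.

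Most Imd signalling genes did not pass the test. Of 20 Imd signalling genes 2 rose in exposed wild type, where 0.122% of all genes rose. They were Rel (Relish) by 0.73 and PGRP-LF by 2.27 (limma adjusted p = 0.0143 and 0.0274). The call of Rel was lost without 4 of the 6 libraries in turn and that of PGRP-LF without any 1. In the mutant against control 5 rose and 1 fell, at a median of 0.08 over the list, where 9.65% of all genes rose and 6.26% fell. PGRP-LF rose by 4.80, pirk, an inhibitor of the receptors, by 4.56, Rel by 2.96 and the receptor gene PGRP-LC by 2.53, and these 4 calls held in every alternative. The other 2, named after their values were seen, were key at 0.23 and ben at -0.29, calls that were lost without most single libraries. In the mutant against exposed wild type 4 of the 20 rose and 1 fell, where 9.62% of all genes rose and 7.03% fell.

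IBIN has been linked to Toll signalling and to sugar metabolism, and genes of both kinds were measured. Of 16 Bomanin, Daisho and Baramicin genes, which are effectors of the Toll pathway, none passed in exposed wild type (limma; 3 were higher at an unadjusted p under 0.05). In the mutant against control 9 rose, at a median of 1.68, among them BomBc1 by 4.80 and BomS1 by 3.63, and 8 rose against exposed wild type, or 5 without mutant S2, exposed wild-type S1 or exposed wild-type S2. Of 13 maltase and amylase genes tested, none passed in exposed wild type (limma; 2 were higher and 1 lower at an unadjusted p under 0.05). In the mutant against control 4 of 14 rose, where 9.65% of all genes did. These were the alpha-amylase genes Amy-p by 6.49 and Amy-d by 4.38 and the maltase genes Mal-A6 by 3.33 and Mal-B2 by 2.88. Against exposed wild type 4 of 14 rose, where 9.62% did, but Mal-A6 did not pass (1.04, limma adjusted p = 0.392). Mal-A6 averaged 4.33 in the controls, 32.3 in exposed wild type and 48.5 in the mutant. Amy-p and Amy-d are near-identical, so the split of reads between them is uncertain. The change of IBIN in the mutant against control was 9.08.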

How the data were processed

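Poly(A) RNA libraries were stranded and sequenced from both ends in 1 lane, per the labels' protocols. HISAT2, HTSeq, featureCounts and DESeq2 are named in the submitters' processing notes without roles. The build, the gene annotation and the strand used in counting are not given in the labels. Of 12 deposited tables, 2 were used. Their values are a score, counts that the authors normalized within each table and rounded; the same control values differed between tables by a median ratio of 1.013, 1.017 and 1.021. The authors' deposited fold ratio, its log2 value and their p-values stand in further columns, per the file headers, and gave only the results credited to them. Read depth was estimated from which whole numbers occur at low values.

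Genes with a mean of at least 1 were compared on log2(value + 1) with limma 3.58.1 in R 4.3.3 (empirical Bayes with a mean trend, Benjamini-Hochberg, adjusted p under 0.05), within each table; because the values are a score, no count test was used. For mutant against exposed wild type the mutant table was multiplied by 1.017 to match the controls. With 3 libraries a group an exact test cannot go under p = 0.1. The labels do not say that pools of a group came from separate cultures, so p-values measure the spread between libraries. The fit was tested on simulated data. The members and gene lists were chosen with earlier results of these data known. Neighbours, the 3 nearest genes by pattern and up to 4 genes of each list with the smallest adjusted p in the mutant comparison were named by rule. Positions and lengths came from BDGP6, Ensembl release 115, for 16838 of the IDs, and older names from RefSeq synonyms. Promoter and protein sequences were not analysed here.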

Additional observations from a re-analysis of the deposited data

How the results depend on the processing

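For the 4 genes, other pseudocounts, quantile normalization, all libraries on one scale, the authors' deposited log2 fold change and leaving out each library were tried; array weights and other filters were tried for calls over all genes. Of the 136 values this gave for the 4 genes, 135 stayed within 1 SD of the reported change and none changed sign. The exception was edin in the mutant against control with a pseudocount of 4, at 11.46 in place of 12.05. A larger pseudocount shrinks changes from low values. Some of the 136 values could not move by construction. These were the wild-type changes on one scale and the steps from exposed wild type to mutant without a control library. In exposed wild type 16 genes were called, all higher (332 were lower at an unadjusted p under 0.05), and array weights called 31. Leaving out 1 library gave 0 to 19, with 0 without exposed S1, exposed S2 or control S1, where 403, 425 and 766 genes were higher at an unadjusted p under 0.05 by limma. In the mutant 2130 genes were called, and 1172 to 1732 with 1 library left out. Against exposed wild type 2214 were called, and 1355 to 2539 with 1 library left out. Otherwise the cause was not tested. The authors' deposited table lists 125 higher and 17 lower in exposed wild type. No paired analysis was possible because the groups share fewer than 2 replicate numbers and the columns carry none. Depth limits edin and IBIN in controls and exposed wild type, where values are 4 to 95.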
